A study of Mus musculus with 18 samples.

Results

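The genes described here encode the proteins of the mitochondrial ribosome. They were chosen by symbol: every gene named Mrpl or Mrps followed by a number, which gave 76 of the 18193 genes measured, each read from its brightest probe set that carries a single gene symbol. Affymetrix arrays gave their levels in splenic CD4 T cells, isolated by magnetic sorting from C57BL/6 animals that were 9 to 15 weeks old. The 6 groups were stimulated Gli2A Tg, stimulated Gli2R Tg, stimulated WT, resting Gli2A Tg, resting Gli2R Tg and resting WT cells, with 3 arrays each and 18 in all. Stimulated cells had 6 h with antibodies to CD3 and CD28, and resting cells were taken fresh, so an effect of culture and an effect of stimulation cannot be told apart. Gli2A Tg and Gli2R Tg mice carry a transgene whose name stands for an activator or a repressor form of Gli2, a transcription factor of the Hedgehog pathway. The labels do not name the promoter that drives either transgene. The sources used here do not say whether a group's arrays come from separate animals, and each p-value therefore measures the spread between these arrays only.

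Mitochondria make a small set of respiratory chain proteins with a ribosome of their own. Its RNAs come from mitochondrial DNA, and all of its proteins are encoded in the nucleus, made in the cytosol and imported. Some of these proteins have a homologue in the bacterial ribosome, and others are found only in mitochondria. T cells that leave the resting state are known to enlarge their mitochondria and to need mitochondrial translation. Of the 76 members, 49 belong to the large subunit (28 with a bacterial homologue and 21 specific to mitochondria) and 26 to the small subunit (16 and 10). Mrps18a and Mrps30 are named for the small subunit but are known as large subunit proteins and are counted there. Mrps36 is known as a component of the 2-oxoglutarate dehydrogenase complex in spite of its name and was placed in neither subunit. Mrpl30 and Mrpl53 were left out because their probe sets carry a second gene symbol, Gm6238 and Ccdc142.

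All 76 members had a mean level above the median gene, on the log2(value + 16) scale used throughout. Group means in resting WT cells lay between 8.76 (Mrps27) and 13.50 (Mrps14). Levels come from different probes, so they are not ranked between genes. The T cell genes were high in all groups, with a summed intensity of 11 markers of 66361 to 68298 in stimulated Gli2A Tg, 66003 to 72949 in stimulated Gli2R Tg and 64587 to 73954 in stimulated WT arrays. The same sum was 85730 to 115247 in resting Gli2A Tg, 123080 to 132395 in resting Gli2R Tg and 102375 to 121538 in resting WT arrays. The 11 markers did not move as 1 on stimulation. In WT cells Cd3e (-2.73), Cd3g, Cd3d, Thy1, Cd4 and Cd5 fell and Zap70 rose (0.85). Cd247, Lat, Cd28 and Cd2 were not called there. The sums therefore do not measure the share of T cells. In an array study of mixed material, fewer cells of a type and less RNA of a marker per cell cannot be told apart.

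Resting Gli2A Tg replicate 3 and stimulated Gli2A Tg replicate 2 stood apart from the other arrays on the principal components of all genes. That stimulated array had a beta-actin 3′ to 5′ ratio of 2.996, where no other array exceeded 1.82. Without both arrays, 25 members rose and 12 fell on stimulation in Gli2A Tg cells, against 27 and 16 with them, and 0 members were called in each comparison of Gli2A Tg with WT or Gli2R Tg. A male pattern of sex-linked genes was seen in 2 of 3 stimulated Gli2R Tg, 1 of 3 stimulated WT and 2 of 3 resting WT arrays and in no other, and its part in the genotype differences was not tested.

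Stimulation moved the mitochondrial ribosomal protein genes in both directions, as it did genes in general. In Gli2A Tg cells 27 members rose and 16 fell, where 20.2% of all genes rose and 22.8% fell at an adjusted p (limma, Benjamini-Hochberg over all genes) under 0.05. In Gli2R Tg cells 22 rose and 20 fell, beside 19.8% and 22.5% of all genes. In WT cells 17 rose and 22 fell, beside 19.7% and 22% of all genes. The median log2 difference of the members was 0.12 in Gli2A Tg, 0.10 in Gli2R Tg and 0.00 in WT cells, and that of all genes was 0.00, 0.01 and 0.00 in the same groups. The largest rises in WT cells were those of Mrps6, Mrps18b and Mrpl3, by 5.15-fold, 4.09-fold and 4.02-fold, and the largest fall was that of Mrpl34, by 3.59-fold. The share that rose was 35.5% of members in Gli2A Tg, 28.9% in Gli2R Tg and 22.4% in WT cells. The share that fell was 21.1%, 26.3% and 28.9% in the same groups.

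The split between rises and falls depended on how the arrays were scaled. With each array centred on its median, 38 members rose and 9 fell in Gli2A Tg, 25 and 18 in Gli2R Tg, and 29 and 13 in WT cells. That scaling moved the median of all genes by 0.11 in Gli2A Tg, 0.05 in Gli2R Tg and 0.13 in WT cells, and the member medians became 0.42, 0.26 and 0.30. With the deposited scaling alone the counts were 31 and 17 in Gli2A Tg, 25 and 20 in Gli2R Tg, and 20 and 20 in WT cells. Rises called under all 9 settings that kept every array numbered 23 of 27 in Gli2A Tg, 17 of 22 in Gli2R Tg and 14 of 17 in WT cells. Falls called under all of them numbered 7 of 16, 13 of 20 and 10 of 22. Shares of all genes under these settings are not given here, so these counts cannot set the members apart from other genes.

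**Figure D1:**
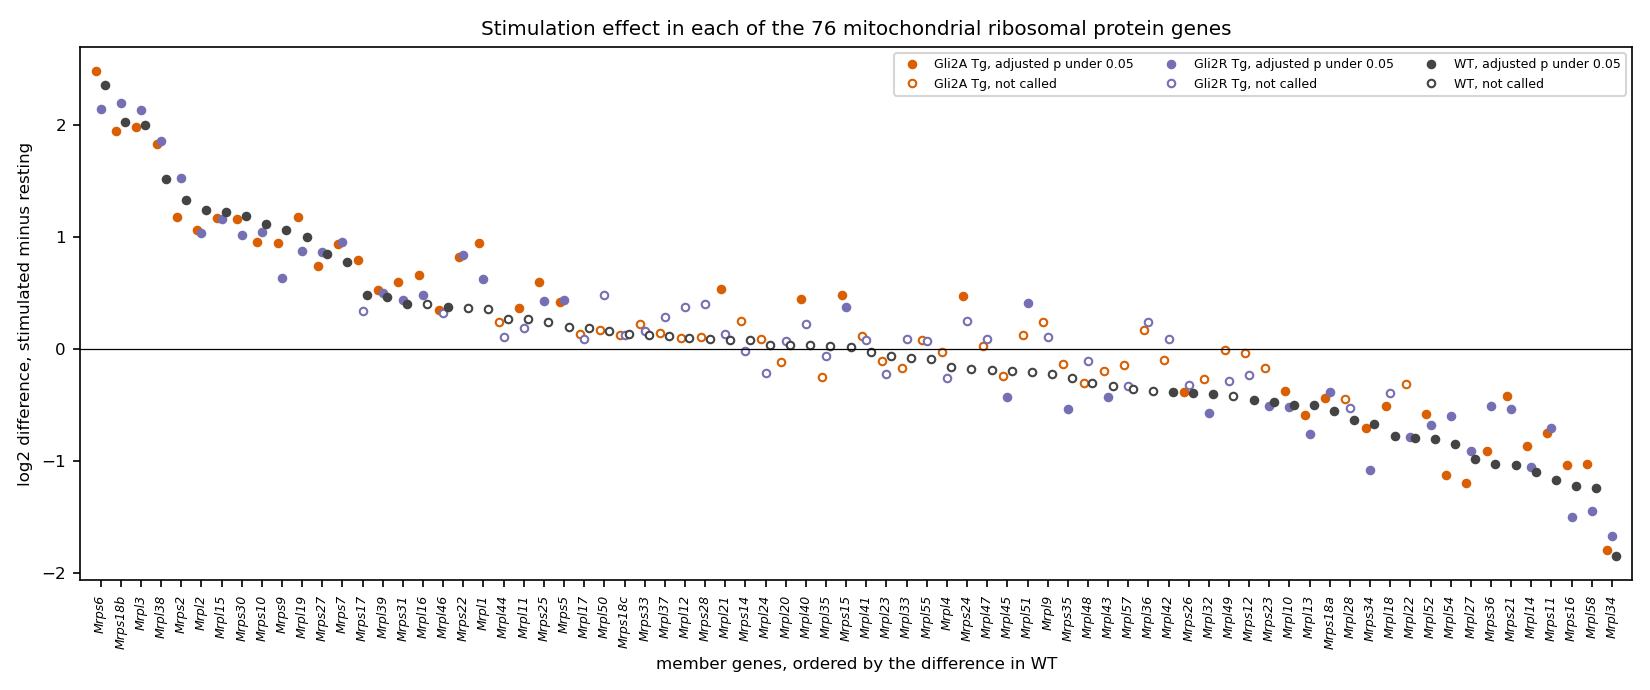
Log2 difference of stimulated minus resting cells (vertical axis) for each of the 76 members, ordered by the difference in WT, in Gli2A Tg, Gli2R Tg and WT cells. Filled points have an adjusted p under 0.05. The 3 genotypes follow one another from Mrps6 at the left, at 2.48, 2.15 and 2.36, to Mrpl34 at the right, at -1.79, -1.67 and -1.84.

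Among the small subunit proteins with a bacterial homologue, 9 of 16 rose and 3 fell in Gli2A Tg, 7 and 3 in Gli2R Tg, and 6 and 4 in WT cells. Mrps6, which sits in the platform of the small subunit, rose most. Its log2 intensity was 13.14, 13.35 and 13.13 in stimulated Gli2A Tg, 13.47, 13.30 and 13.52 in stimulated Gli2R Tg, and 13.32, 13.36 and 13.42 in stimulated WT arrays. In resting arrays it was 10.91, 10.82 and 10.46 in Gli2A Tg, 11.15, 11.49 and 11.20 in Gli2R Tg, and 10.95, 11.04 and 11.02 in WT. Every stimulated array lay above every resting array. Members named for large differences were picked by that difference. Array ranges that do not overlap, here and below, only describe it. The difference was 2.48, 2.15 and 2.36 ± 0.14 (SE, n = 3 in each group) in Gli2A Tg, Gli2R Tg and WT cells, or 5.59-fold, 4.43-fold and 5.15-fold, with adjusted p = 4.54e-09, 1.58e-08 and 7.17e-09.

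Mrps6 has a second probe set, and it rose less, by 0.84 ± 0.16 in WT cells (adjusted p = 0.000467 over all probe sets). The brighter one carries the _s_at suffix, which Affymetrix gives to probe sets that can match more than one transcript. The gene Slc5a3, an inositol transporter whose transcription unit overlaps Mrps6, rose by 2.53 in Gli2A Tg, 2.58 in Gli2R Tg and 2.13 ± 0.22 in WT cells. Whether its transcripts add to the Mrps6 signal was not tested.

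Mrps2, a conserved protein of the small subunit, rose by 1.18 in Gli2A Tg, 1.53 in Gli2R Tg and 1.33 ± 0.12 in WT cells. In WT it had 11.49, 11.51 and 11.54 in stimulated arrays, against 10.26, 10.12 and 10.16 in resting arrays. Mrps10 and Mrps9, both of the small subunit head, rose by 1.12 ± 0.19 and 1.06 ± 0.15 in WT cells, with adjusted p = 0.000184 and 4.06e-05. Mrps10 had 11.41, 11.50 and 11.62 in stimulated WT arrays and 10.33, 10.16 and 10.69 in resting WT arrays, so the groups did not overlap. Mrps7 rose in all 3 genotypes too, by 0.94, 0.96 and 0.78 ± 0.15.

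The falls in the same group were Mrps16, Mrps11 and Mrps21 in every genotype, and Mrps12 passed in WT cells as well (-0.45 ± 0.14). Mrps16 had 11.45, 11.33 and 11.45 in stimulated Gli2A Tg, 11.16, 10.98 and 11.05 in stimulated Gli2R Tg, and 11.13, 11.41 and 11.54 in stimulated WT arrays. Its resting values were 12.43, 12.40 and 12.51 in Gli2A Tg, 12.27, 12.52 and 12.89 in Gli2R Tg, and 12.42, 12.53 and 12.80 in WT. All 9 stimulated arrays were below all 9 resting arrays, and the fall was 2.05-fold, 2.82-fold and 2.33-fold (log2 -1.03, -1.50 and -1.22 ± 0.16). Mrps11 fell by 0.75, 0.70 and 1.17 ± 0.14 on the log2 scale in Gli2A Tg, Gli2R Tg and WT cells. Its dimmer probe set gave 0.02, -0.39 and -0.95, and the mean of both ended the call in Gli2A Tg cells (-0.36, adjusted p = 0.188). Mrps21 fell by 0.42, 0.53 and 1.03 ± 0.16, and its adjusted p in Gli2A Tg cells was 0.0492, which passed the threshold in the main setting but not in 11 of the alternatives.

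Small subunit proteins specific to mitochondria rose in 5 and fell in 2 of 10 in Gli2A Tg, 5 and 3 in Gli2R Tg, and 3 and 3 in WT cells. Mrps18b is a divergent relative of the bacterial S18 protein, and Mrps18a and Mrps18c are the other forms in mammals. Mrps18b had 12.81, 12.47 and 12.89 in stimulated Gli2A Tg, 12.68, 12.69 and 12.75 in stimulated Gli2R Tg, and 12.72, 12.77 and 12.90 in stimulated WT arrays. Its resting values were 10.64, 10.65 and 11.02 in Gli2A Tg, 10.22, 10.63 and 10.67 in Gli2R Tg, and 10.73, 10.78 and 10.79 in WT. The groups lay far apart, with rises of 3.87-fold, 4.59-fold and 4.09-fold (log2 1.95, 2.20 and 2.03 ± 0.15; adjusted p = 9.04e-08, 2.95e-08 and 6.9e-08).

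The 3 S18 forms did not move together. Mrps18a fell by 0.44 in Gli2A Tg, 0.38 in Gli2R Tg and 0.55 ± 0.12 in WT cells on the log2 scale, with adjusted p = 0.00967, 0.0235 and 0.00221. In no genotype was this fall called under all 9 alternative settings that kept every array. Mrps18c had differences of 0.13, 0.13 and 0.14 ± 0.14 and was called in no genotype. Among small subunit members specific to mitochondria, Mrps27, a pentatricopeptide repeat protein, rose by 0.75, 0.87 and 0.85 ± 0.18, and Mrps31 by 0.60, 0.44 and 0.41 ± 0.11. Mrps34 fell by 0.71, 1.08 and 0.67 ± 0.12.

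Among the large subunit proteins with a bacterial homologue, 8 of 28 rose and 6 fell in Gli2A Tg, 6 and 7 in Gli2R Tg, and 4 and 9 in WT cells. Mrpl3, a protein at the base of the peptidyl transferase centre, rose most. It had 12.89, 13.14 and 13.05 in stimulated Gli2A Tg, 13.01, 13.003 and 13.07 in stimulated Gli2R Tg, and 13.005, 13.15 and 13.25 in stimulated WT arrays. Resting values were 10.97, 10.87 and 11.28 in Gli2A Tg, 10.79, 10.80 and 11.09 in Gli2R Tg, and 11.27, 10.89 and 11.23 in WT. These ranges did not overlap, and the rise was 3.96-fold, 4.39-fold and 4.02-fold (log2 1.98, 2.13 and 2.01 ± 0.15; adjusted p = 5.59e-08, 2.87e-08 and 5.58e-08). All 4 probe sets of Mrpl3 were above 0 in WT cells, between 1.05 and 2.01.

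Mrpl2, another protein next to the peptidyl transferase centre, rose by 1.06 in Gli2A Tg, 1.03 in Gli2R Tg and 1.25 ± 0.16 in WT cells. Mrpl15 rose by 1.18, 1.16 and 1.23 ± 0.17 on its brightest probe set, and its 8 probe sets ranged from -0.13 to 2.83 in WT cells. Mrpl19, which lies at the interface of the subunits, rose by 1.18, 0.88 and 1.00 ± 0.12. In WT cells Mrpl19 was at 0.38 (adjusted p = 0.0578) when all of its probe sets were averaged.

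Mrpl34, among the smallest proteins of the large subunit, fell most. Its log2 intensity was 10.05, 9.80 and 10.29 in stimulated Gli2A Tg, 9.61, 9.89 and 10.15 in stimulated Gli2R Tg, and 10.004, 9.97 and 10.22 in stimulated WT arrays. In resting arrays it was 11.61, 11.79 and 12.12 in Gli2A Tg, 11.28, 11.55 and 11.82 in Gli2R Tg, and 11.86, 11.85 and 12.01 in WT. Stimulated and resting arrays were separated by about 1 log2 unit, and the fall was 3.47-fold, 3.18-fold and 3.59-fold (log2 -1.79, -1.67 and -1.84 ± 0.19; adjusted p = 1.62e-06, 3.45e-06 and 1.35e-06). A second, dimmer probe set of Mrpl34 gave 0.36, -0.71 and -0.96, and the mean of both was -0.72 in Gli2A Tg cells. Mrpl14 fell by 0.86, 1.05 and 1.09 ± 0.17 on the log2 scale, and Mrpl27, which reaches the peptidyl transferase centre in bacteria, by 1.19, 0.91 and 0.98 ± 0.15. Mrpl10 fell by 0.37, 0.51 and 0.50 ± 0.11. Its partner in the ribosomal stalk, Mrpl12, which is also known to bind the mitochondrial RNA polymerase, had differences of 0.10, 0.38 and 0.10 ± 0.15 and was called in no genotype.

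Large subunit proteins specific to mitochondria rose in 5 and fell in 4 of 21 in Gli2A Tg, 4 and 6 in Gli2R Tg, and 4 and 5 in WT cells. Mrpl38, a protein of the central protuberance, rose by 1.83 in Gli2A Tg, 1.86 in Gli2R Tg and 1.52 ± 0.25 in WT cells. It had 10.75, 10.60 and 10.55 in stimulated WT arrays against 8.76, 8.97 and 9.59 in resting WT arrays, the resting group having the wider spread. Mrps30 rose by 1.16, 1.02 and 1.19 ± 0.11, with 11.91, 11.91 and 12.003 in stimulated WT arrays against 10.75, 10.78 and 10.71 in resting WT arrays.

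Mrpl58, a peptidyl-tRNA hydrolase built into the large subunit that can release stalled chains, fell by 1.02 in Gli2A Tg, 1.44 in Gli2R Tg and 1.24 ± 0.12 in WT cells. It had 10.76, 11.12 and 10.995 in stimulated Gli2A Tg, 10.82, 10.75 and 10.92 in stimulated Gli2R Tg, and 10.99, 10.94 and 10.99 in stimulated WT arrays. Resting values were 12.06, 12.03 and 11.85 in Gli2A Tg, 12.16, 12.27 and 12.39 in Gli2R Tg, and 12.11, 12.31 and 12.22 in WT. The groups did not overlap on this probe set, but the dimmer probe set of Mrpl58 gave 0.55, 1.49 and 0.48. Mrpl54 fell by 1.12, 0.60 and 0.85 ± 0.16 and Mrpl52 by 0.58, 0.68 and 0.80 ± 0.13. Mrps36, the dehydrogenase component, fell by 0.91, 0.50 and 1.02 ± 0.17, and its call in Gli2R Tg cells (adjusted p = 0.0261) was lost when any of 4 arrays was left out.

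**Figure D2:**
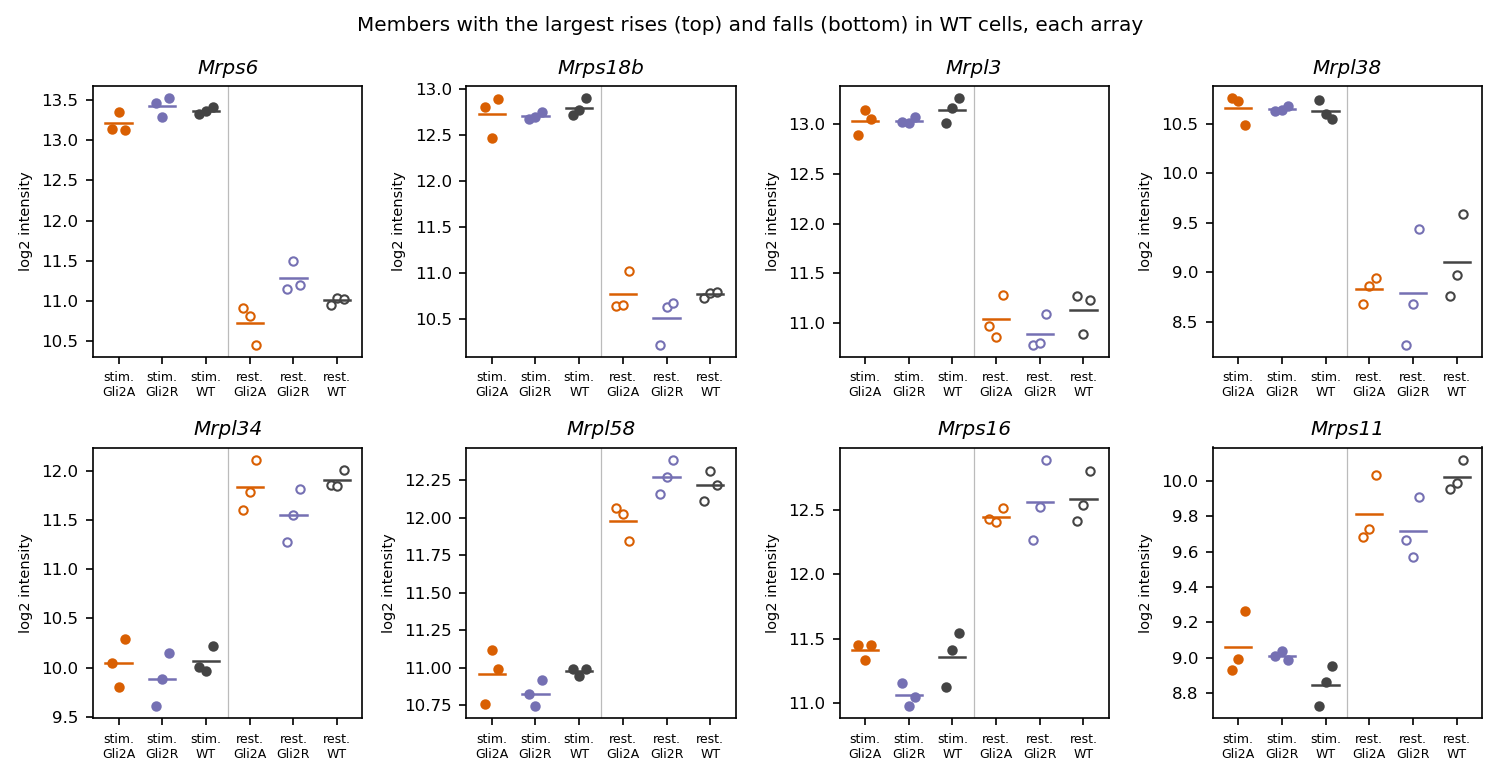
Log2 intensity (vertical axes, not starting at 0) of the 4 members with the largest rises and the 4 with the largest falls in WT cells, in each of the 18 arrays. Points are arrays and bars are group means, with stimulated groups left of resting groups. In all 8 panels the stimulated arrays are separated from the resting arrays, as for Mrps6 with 13.13 to 13.52 against 10.46 to 11.49. The genes were chosen by this difference in WT cells, so the separation adds no support.

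Taking the subunits whole, 14 of 26 small subunit members rose and 5 fell in Gli2A Tg, 12 and 6 in Gli2R Tg, and 9 and 7 in WT cells. Of 49 large subunit members, 13 rose and 10 fell in Gli2A Tg, 10 and 13 in Gli2R Tg, and 8 and 14 in WT cells. The median difference was 0.45, 0.36 and 0.13 for the small subunit and 0.03, 0.08 and -0.09 for the large subunit. Centring on the array median gave 17 and 3, 13 and 6, and 14 and 3 in the small subunit. The same setting gave 21 and 5, 12 and 11, and 15 and 9 in the large subunit, whose WT median became 0.12. The deposited scaling gave 17 and 11, 12 and 13, and 11 and 12 in the large subunit, and a WT median of -0.07. The difference between the subunits was not tested.

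In all 3 genotypes 15 members rose (7 of the large and 8 of the small subunit), where 13.9% of all genes did so. Another 14 fell in all 3 (9 of the large subunit, 4 of the small and Mrps36), where 16.4% of all genes did so. Opposite calls in different genotypes were made for 0 members and 0.203% of all genes, and 23 were called in none, as were 43.9% of all genes. Of these 23, 19 belong to the large subunit. By more than 2-fold, 9 rose and 5 fell in Gli2A Tg (11.3% and 15.6% of all genes), 9 and 5 in Gli2R Tg (11.1% and 14.9%), and 11 and 7 in WT cells (10.9% and 14.6%).

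Mean levels per array describe these sets. The 15 members that rose averaged 11.76 ± 0.02 in stimulated Gli2A Tg arrays (SD, n = 3), against 10.51 ± 0.12 in resting Gli2A Tg arrays. In WT cells they averaged 11.79 ± 0.04 when stimulated and 10.55 ± 0.08 when resting. The 14 that fell averaged 10.59 ± 0.08 in stimulated Gli2A Tg and 11.44 ± 0.07 in resting Gli2A Tg arrays, and 10.64 ± 0.09 in stimulated WT against 11.60 ± 0.13 in resting WT arrays. These sets were chosen by the same difference, so the means only describe it. Over all 76 members the mean was 11.29 ± 0.02 in stimulated Gli2A Tg and 11.13 ± 0.05 in resting Gli2A Tg arrays, and 11.29 ± 0.08 in stimulated WT and 11.26 ± 0.09 in resting WT arrays.

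**Figure D3:**
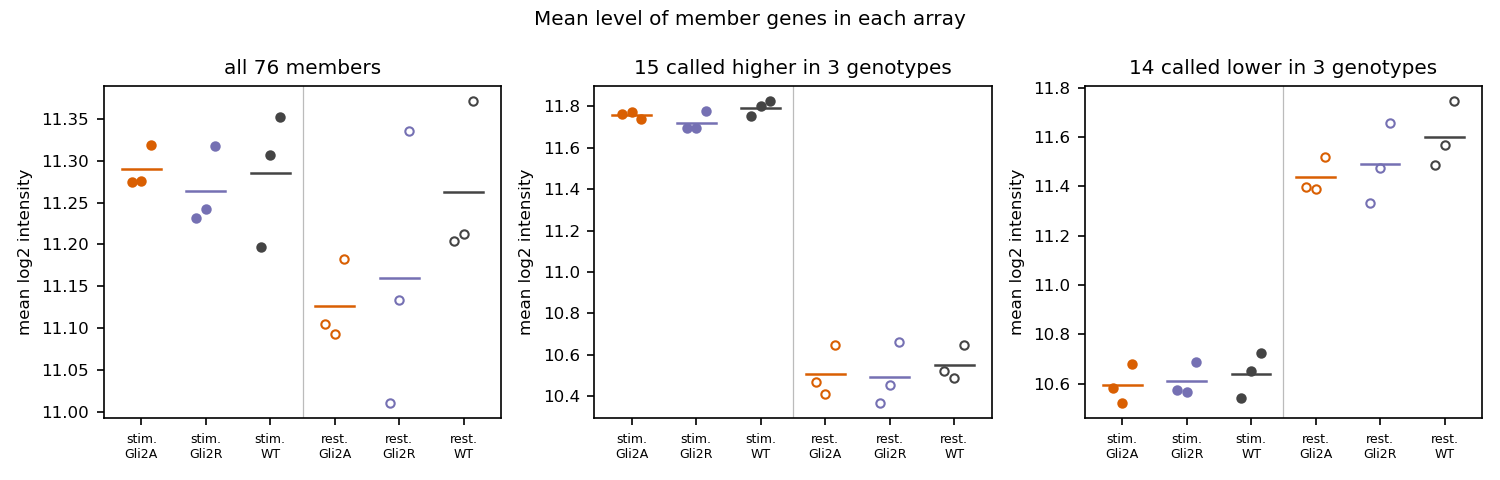
Mean log2 intensity (vertical axes, not starting at 0) of all 76 members, of the 15 that rose in all 3 genotypes and of the 14 that fell in all 3, in each array. Points are arrays and bars are group means, with stimulated groups left of resting groups. The 15 and the 14 move apart on stimulation, while the mean of all members in WT is 11.29 in stimulated and 11.26 in resting cells.

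The stimulation differences of the 76 members correlated across genes at r = 0.962 between Gli2A Tg and WT, 0.955 between Gli2R Tg and WT and 0.957 between Gli2A Tg and Gli2R Tg. Over all genes r was 0.883, 0.879 and 0.881. No array is shared by these pairs of differences. The sign was the same for 67, 64 and 71 of 76 members, and for 14352, 14283 and 14426 of all 18193 genes. Genes are not independent replicates, and these values are a description.

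A further 24 members were called in only 1 or 2 genotypes, most of them with small differences. The largest set was 6 members that rose in both Gli2A Tg and Gli2R Tg cells and missed the threshold in WT: Mrps22, Mrpl1, Mrps25, Mrpl16, Mrps15 and Mrps5. The shares of all genes in these classes were not counted, so neither count sets the members apart from other genes. Mrps22 rose by 0.82 in Gli2A Tg cells and 0.84 in Gli2R Tg cells, with 0.37 ± 0.15 in WT cells (adjusted p = 0.0653). Mrpl1 rose by 0.95 in Gli2A Tg cells and 0.63 in Gli2R Tg cells, with 0.36 ± 0.15 in WT cells (adjusted p = 0.0654). The tests of the difference in effect did not separate the genotypes in either gene. Against WT, Mrps22 differed by 0.45 ± 0.22 in Gli2A Tg and 0.47 ± 0.22 in Gli2R Tg T cells (adjusted p = 0.508 and 0.571). Mrpl1 differed by 0.59 ± 0.21 and 0.27 ± 0.21 (adjusted p = 0.364 and 0.755).

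Other cell types changed with stimulation in the same arrays. The summed intensity of 12 myeloid markers was 2025 to 5479 in stimulated Gli2A Tg, 1286 to 1640 in stimulated Gli2R Tg and 1462 to 2118 in stimulated WT arrays. In resting arrays it was 106210 to 113680 in Gli2A Tg, 44824 to 58477 in Gli2R Tg and 63571 to 93818 in WT, and 11 of the 12 markers fell in each genotype. The summed intensity of 6 erythroid markers was 2406 to 5757, 1554 to 2448 and 1968 to 6397 in the stimulated arrays, against 35140 to 86738, 9884 to 22743 and 35899 to 49847 in the resting arrays. The erythroid sum rests mostly on Car2, whose log2 level in resting WT cells was 14.66, the next being Klf1 at 12.61. Alas2, Klf1 and Car2 fell in each genotype. Slc4a1 and Epor fell in Gli2A Tg and WT cells but were not called in Gli2R Tg cells, and Hba-a1 was called in none. The part of the myeloid and erythroid markers in the member differences was not tested. All 6 activation markers rose in each genotype, and Il2 rose by 6.96, 6.08 and 6.87.

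Among other nuclear genes of mitochondrial translation, transcription and RNA handling, more rose than fell. The 63 measured were 4 ribosomal proteins under other names and 59 further genes. The 59 were translation factors, assembly genes, mitochondrial aminoacyl-tRNA synthetases and 12 genes of mitochondrial transcription and RNA handling. Of the 63, 34 rose and 8 fell in Gli2A Tg, 32 and 9 in Gli2R Tg, and 32 and 8 in WT cells. Of all genes 20.2% rose and 22.8% fell in Gli2A Tg, 19.8% and 22.5% in Gli2R Tg, and 19.7% and 22% in WT cells. Without the 4 ribosomal proteins the counts were 31 and 7, 31 and 8, and 31 and 7. The median difference of the 63 was 0.67, 0.56 and 0.48. Centring on the array median left 33 and 7, 32 and 10, and 32 and 8, and the deposited scaling gave 32 and 10, 31 and 13, and 26 and 14. The difference between these genes and the 76 members was not tested.

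Among 10 translation factors in WT cells 5 rose and 1 fell. Tufm, the elongation factor that brings charged tRNA to the ribosome, rose by 1.65 in Gli2A Tg, 1.92 in Gli2R Tg and 1.67 ± 0.19 in WT cells. Mtfmt, which formylates the initiator tRNA, rose by 1.00 ± 0.14 in WT cells, and the elongation factors Gfm1 and Tsfm rose by 0.98 ± 0.13 and 0.78 ± 0.21. The initiation factor Mtif2 fell, by 0.70, 0.76 and 0.68 ± 0.12. Of 16 mitochondrial aminoacyl-tRNA synthetases 9 rose and 1, Cars2, fell (-0.66 ± 0.19). Nars2, for asparagine, rose by 1.74, 1.47 and 1.38 ± 0.17 and Aars2, for alanine, by 1.19, 1.77 and 1.79 ± 0.43.

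Of 21 assembly genes 10 rose and 2 fell in WT cells. Fastkd2, which binds the large ribosomal RNA, rose by 1.69 in Gli2A Tg, 1.88 in Gli2R Tg and 1.44 ± 0.22 in WT cells, and the helicase Ddx28 rose by 1.18, 0.97 and 1.32 ± 0.16. Malsu1, which keeps an immature large subunit from joining the small one, fell by 0.71, 1.27 and 1.29 ± 0.17. The other fall in WT was Tfb1m, a methyltransferase of the small ribosomal RNA (-0.97 ± 0.18). In the list of mitochondrial transcription and RNA handling 7 of 12 rose and 3 fell. Elac2, which trims tRNA 3′ ends, rose by 1.58, 1.83 and 1.99 ± 0.14, and Tfb2m, a factor needed to start mitochondrial transcription, by 1.61, 1.61 and 1.52 ± 0.16. Tfam, the packaging protein of mitochondrial DNA, fell in WT cells (-0.43 ± 0.13).

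Of the ribosomal proteins whose symbols do not follow the Mrp pattern, 4 were measured. Ptcd3, a small subunit protein, rose by 1.21, 1.23 and 1.15 ± 0.18 in Gli2A Tg, Gli2R Tg and WT cells, and Dap3, a guanine nucleotide binding protein of the small subunit, fell by 0.59, 0.60 and 0.56 ± 0.12. Chchd1 and Gadd45gip1 rose in Gli2A Tg cells, by 0.44 ± 0.14 and 0.55 ± 0.17, and had 0.15 and 0.00 in WT cells. For comparison, 8 of 75 respiratory chain subunit genes rose and 34 fell in WT cells, with a median of -0.35 that became 0.00 on centring. Of 49 cytosolic ribosomal protein genes 5 rose and 9 fell, with a median of 0.02 that became -0.15 with the deposited scaling.

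**Figure D4:**
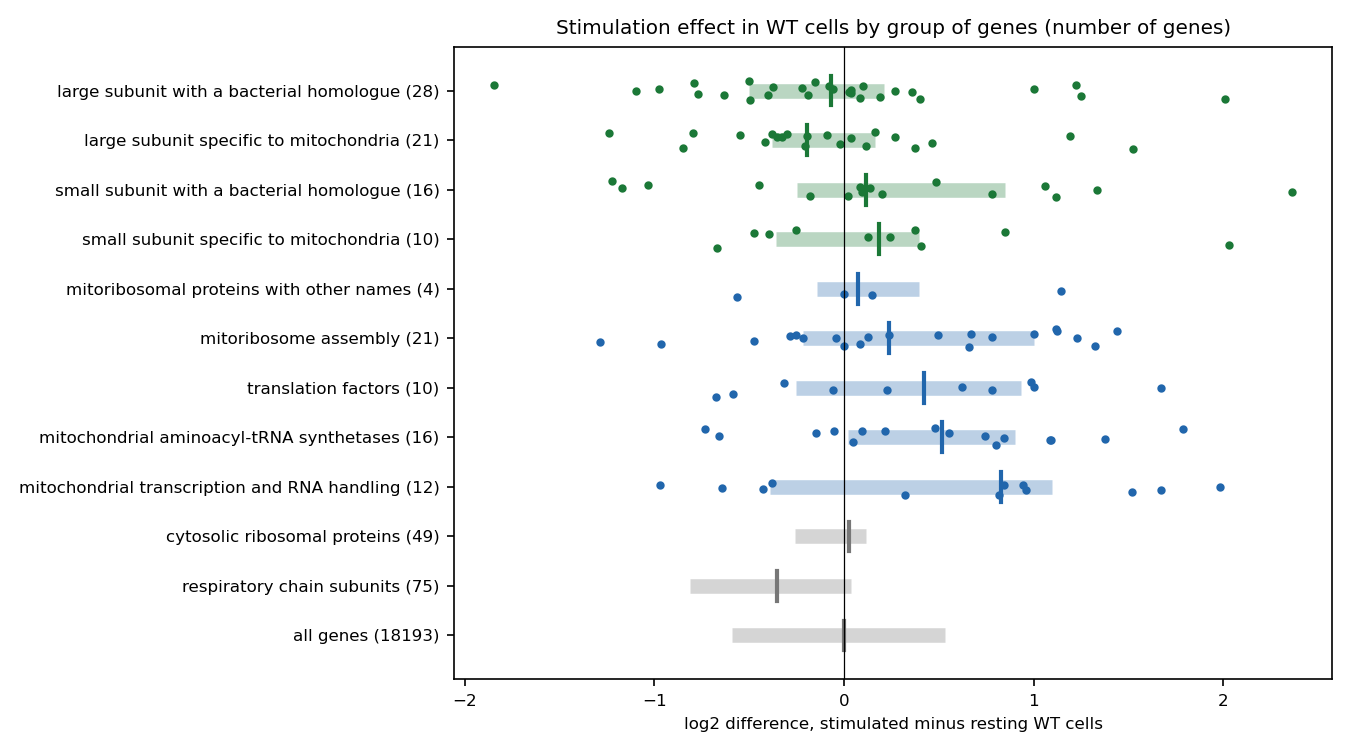
Log2 difference of stimulated minus resting WT cells (horizontal axis) by group of genes, with the number of genes in parentheses. Points are genes, thick bars run between the quartiles and vertical ticks are medians. Large subunit groups have medians of -0.07 and -0.19 and small subunit groups 0.12 and 0.19, beside 0.52 for mitochondrial aminoacyl-tRNA synthetases and -0.35 for respiratory chain subunits.

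The choice of probe set matters for single members. Of the 76 members 34 had 1 usable probe set and 42 had more, 156 in all. In 22 of the 42, all probe sets lay on one side of 0 in WT cells. In 5 a probe set rose and another fell at an adjusted p under 0.05 over all probe sets: Mrpl13, Mrpl28, Mrps15, Mrps26 and Mrps5. Such counts were not made for other genes with more than 1 probe set, so they are not shown to be particular to the members. Mrpl13 gave -0.50 on its brightest probe set and 0.05, 1.07 and 1.81 on the others. Mrpl28 gave -0.63, 0.35 and 1.71 on probe sets of nearly equal brightness. The 15 members that rose in all 3 genotypes held 10 with more than 1 probe set, of which 8 were on one side of 0, and the 14 that fell held 8, of which 4 were.

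Some members that were not called in WT cells on the brightest probe set moved on another. Mrpl50 had 0.16 ± 0.20 in WT cells on its brightest probe set and 2.35 ± 0.15 on the other, which also gave 2.49 in Gli2A Tg cells and 2.86 in Gli2R Tg cells. Mrpl11 had 0.27 on the brightest and 1.25 and 1.96 on the next 2. Mrpl52, by contrast, was called on its brightest probe set, and it fell by 0.80, 1.69 and 1.87 on its 3 bright probe sets. Which transcripts each probe set reads was not examined here.

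**Figure D5:**
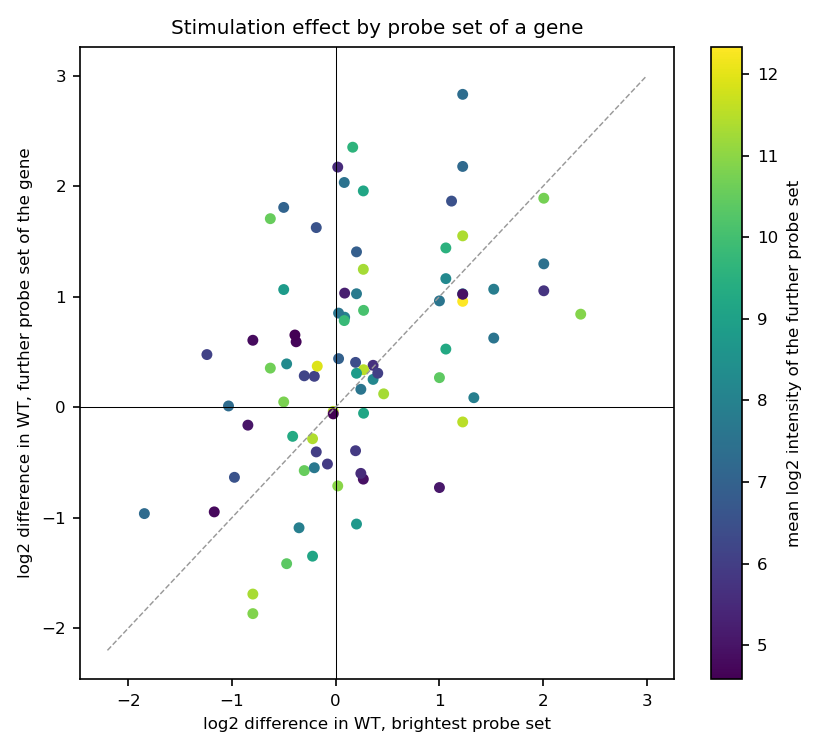
Log2 difference of stimulated minus resting WT cells on a member's brightest probe set (horizontal axis) and on each further probe set of the same gene (vertical axis), coloured by the mean level of the further probe set. The dashed line marks equal values. Points in the upper left and lower right have opposite signs, as for Mrpl28 at -0.63 and 1.71.

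The promoters of the members that moved most are shown to let their sequence be set beside the values. RefSeq promoters (GRCm38.p6, 250 bases before to 50 after the start) were found for 67 of 76 members, 73 promoters in all. Capitals mark matches, on either strand, to the 4 words searched: GCGCATG, the core of the NRF1 site; CCGGAAG, an ETS site; the E-box CACGTG; and AAGATGG, a YY1 site. NRF1 and the ETS factor GABP are known regulators of nuclear genes for mitochondrial proteins, and MYC binds the E-box. The first 3 promoters belong to the members with the largest rises in WT cells. The last 3 genes, of which Mrps16 has a pair of overlapping promoters, have the largest falls and were picked after the values were seen.
Mrps6, chr16:92058086-92058385, + strand: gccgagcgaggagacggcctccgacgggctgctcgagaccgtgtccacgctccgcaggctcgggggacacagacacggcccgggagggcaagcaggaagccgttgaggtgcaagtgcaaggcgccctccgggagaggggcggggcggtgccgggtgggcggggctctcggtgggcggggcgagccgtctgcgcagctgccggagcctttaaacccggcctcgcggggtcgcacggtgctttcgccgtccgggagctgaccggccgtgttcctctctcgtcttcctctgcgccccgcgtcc
Mrps18b, chr17:35916391-35916690, - strand: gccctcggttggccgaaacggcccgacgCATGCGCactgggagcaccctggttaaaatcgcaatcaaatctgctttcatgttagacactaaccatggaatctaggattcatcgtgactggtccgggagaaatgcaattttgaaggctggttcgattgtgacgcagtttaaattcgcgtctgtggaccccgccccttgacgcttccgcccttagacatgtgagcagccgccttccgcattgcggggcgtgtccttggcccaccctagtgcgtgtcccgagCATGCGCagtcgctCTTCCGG
Mrpl3, chr9:105053018-105053317, + strand: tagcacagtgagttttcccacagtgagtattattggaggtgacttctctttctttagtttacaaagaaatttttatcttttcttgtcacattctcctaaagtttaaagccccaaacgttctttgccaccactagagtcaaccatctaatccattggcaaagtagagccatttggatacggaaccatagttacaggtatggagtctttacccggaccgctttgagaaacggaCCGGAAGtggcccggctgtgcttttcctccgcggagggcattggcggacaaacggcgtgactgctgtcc
Mrpl34, chr8:71464676-71464975, + strand: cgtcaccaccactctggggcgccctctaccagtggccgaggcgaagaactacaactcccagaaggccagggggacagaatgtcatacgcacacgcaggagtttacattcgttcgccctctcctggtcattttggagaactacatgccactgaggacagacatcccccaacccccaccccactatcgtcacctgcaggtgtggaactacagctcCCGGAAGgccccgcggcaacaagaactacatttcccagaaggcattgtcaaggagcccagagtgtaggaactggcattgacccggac
Mrpl58, chr11:115403502-115403801, + strand: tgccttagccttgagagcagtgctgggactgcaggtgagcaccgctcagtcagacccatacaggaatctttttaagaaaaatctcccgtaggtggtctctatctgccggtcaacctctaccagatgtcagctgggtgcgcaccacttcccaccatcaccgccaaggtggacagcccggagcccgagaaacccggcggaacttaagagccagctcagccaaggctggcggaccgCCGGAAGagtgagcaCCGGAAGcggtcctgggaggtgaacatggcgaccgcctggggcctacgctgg
Mrps16, chr14:20393441-20393740, - strand: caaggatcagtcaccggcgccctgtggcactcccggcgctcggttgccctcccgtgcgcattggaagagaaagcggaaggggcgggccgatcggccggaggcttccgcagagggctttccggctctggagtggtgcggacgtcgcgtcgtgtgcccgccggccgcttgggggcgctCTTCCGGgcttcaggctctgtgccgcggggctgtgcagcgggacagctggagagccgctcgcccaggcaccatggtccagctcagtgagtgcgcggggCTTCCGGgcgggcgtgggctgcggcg
Mrps16, chr14:20393585-20393884, - strand: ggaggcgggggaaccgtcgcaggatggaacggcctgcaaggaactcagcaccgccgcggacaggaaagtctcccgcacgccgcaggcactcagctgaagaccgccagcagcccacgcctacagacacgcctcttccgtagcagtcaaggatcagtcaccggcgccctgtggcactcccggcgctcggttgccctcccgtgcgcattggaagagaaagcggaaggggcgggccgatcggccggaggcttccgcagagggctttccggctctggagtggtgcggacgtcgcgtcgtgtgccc

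The promoter of Mrps18b held the NRF1 and ETS words, those of Mrpl3, Mrpl34 and Mrpl58 and the first of Mrps16 the ETS word, and that of Mrps6 and the second of Mrps16 none of the 4. The ETS word was in 34.2% of the member promoters and in 8.86% of all 32851 promoters of the table. The NRF1 word was in 8 of 73 member promoters and 3.91% of all, the YY1 word in 17.8% and 6.34%, and the E-box in 9.59% and 7.15%. Overlapping promoters of Mrpl2 each held the E-box. By gene, the E-box was in 5 of 67 members and in 2187 of all 27025 genes of the table, so it was not more common in members. At least 1 of the words was in 56.2% of the member promoters and 22.9% of all promoters. Both risers and fallers held them: the ETS word was in 3 of 14 promoters of members that rose in all 3 genotypes, 7 of 12 of members that fell in all 3, and 6 of 24 of members called in none. These counts are small, and no test was run on them.

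No mitochondrial ribosomal protein gene was called between resting Gli2A Tg and WT cells. Against resting WT, 0 members were called in resting Gli2A Tg cells, where 0.55% of all genes were called, and 9 had an unadjusted p under 0.05 (10.1% of all genes), all of them lower (4.25% of all genes). The lowest p was that of Mrps21, with 11.10, 11.06 and 10.86 in resting Gli2A Tg and 11.56, 11.49 and 11.91 in resting WT arrays. The difference was -0.64 ± 0.16 (adjusted p = 0.118). These values did not overlap, but the gene was picked for its low p, so this adds no support. In 3 of the alternative settings Mrps21 passed the threshold, with the lowest adjusted p at 0.0358. Mrps23 had -0.44 ± 0.13 (adjusted p = 0.215) and Mrpl40 -0.35 ± 0.12 (adjusted p = 0.274).

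The members' differences leaned below 0 in resting Gli2A Tg cells. The difference from WT was below 0 in 60 of 76 members, beside 48.2% of all genes, with a median of -0.14. Centring on the array median gave 57 and the deposited scaling 60. The mean over members was 11.10, 11.09 and 11.18 in resting Gli2A Tg arrays against 11.20, 11.21 and 11.37 in resting WT arrays. The highest Gli2A Tg array (11.183) lay just below the lowest WT array (11.204), a gap smaller than the spread between WT arrays (SD 0.094). The myeloid marker sum of the same arrays was 106210 to 113680 in Gli2A Tg against 63571 to 93818 in WT, and the sum of 5 B cell markers 6550 to 8355 against 3358 to 5399. The B cell sum rests mostly on Ly86, whose log2 level in resting WT cells was 11.82, the next being Cd79b at 8.60. The part of these markers in the shift was not tested. Members share an array and are not replicates, so the count carries no test.

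In resting Gli2R Tg cells 0 members were called against WT, as were 0% of all genes, and 10 had an unadjusted p under 0.05 (10.3% of all genes). Mrps15 had the lowest p, with 10.84, 10.94 and 11.16 in resting Gli2R Tg and 11.50, 11.45 and 11.30 in resting WT arrays (-0.44 ± 0.12, adjusted p = 0.209). Mrps9 was at 0.43 ± 0.15 (adjusted p = 0.348) and Mrpl40 at -0.32 ± 0.12 (adjusted p = 0.351). The difference was below 0 in 55 of 76 members, beside 47.9% of all genes, with a median of -0.09. Array means over members were 11.01, 11.13 and 11.34 in resting Gli2R Tg cells and overlapped those of WT. In the same arrays the myeloid marker sum was 44824 to 58477 in Gli2R Tg against 63571 to 93818 in WT, and the erythroid sum 9884 to 22743 against 35899 to 49847. The T cell sum was 123080 to 132395 in Gli2R Tg against 102375 to 121538 in WT, and the part of these markers in the lean was not tested. Both transgenic groups were set against the same WT arrays.

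Between the transgenes at rest, 0 members were called for Gli2A Tg against Gli2R Tg, where 2.4% of all genes were, and 9 had an unadjusted p under 0.05 (17% of all genes). Mrps6 was closest, with 10.91, 10.82 and 10.46 in resting Gli2A Tg against 11.15, 11.49 and 11.20 in resting Gli2R Tg arrays (-0.55 ± 0.14, adjusted p = 0.0519). Mrps2 followed, with 10.28, 10.18 and 10.54 in resting Gli2A Tg against 9.90, 9.79 and 9.99 in resting Gli2R Tg arrays (0.44 ± 0.12, adjusted p = 0.0688), and Mrps23 was at -0.42 ± 0.13 (adjusted p = 0.116). Without resting Gli2A Tg replicate 1, Mrps6 passed the threshold and the count was 1. Testing only genes above the median level gave 4 members, among them Mrps6, Mrps2 and Mrps23. The share of all tested genes called in these 2 settings is not given here. When each gene's probe sets were averaged, Mrps2 was at 0.02 (adjusted p = 0.967) and Mrps6 at -0.51 (adjusted p = 0.0751).

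After stimulation 0 members were called between any pair of genotypes. The share of all genes called was 0.137% for Gli2A Tg against WT, 0.044% for Gli2R Tg against WT and 0.231% for Gli2A Tg against Gli2R Tg. Unadjusted p under 0.05 was reached by 4, 3 and 5 members, beside 11.4%, 9.21% and 9.16% of all genes. Mrpl9, a large subunit protein, had 12.03, 11.92 and 11.999 in stimulated Gli2A Tg, 11.89, 11.83 and 11.84 in stimulated Gli2R Tg, and 11.35, 11.57 and 11.53 in stimulated WT arrays. Both transgenic groups lay above WT, by 0.50 ± 0.12 for Gli2A Tg (adjusted p = 0.115) and 0.37 ± 0.12 for Gli2R Tg (adjusted p = 0.354). Neither overlapped WT, but Mrpl9 was picked for its low p, so this adds no support. Mrps24 differed from WT by 0.42 ± 0.13 in Gli2A Tg (adjusted p = 0.2) and 0.28 ± 0.13 in Gli2R Tg cells (adjusted p = 0.514). Averaged over their probe sets, the differences for Gli2A Tg were 0.086 for Mrpl9 and 0.069 for Mrps24, and those for Gli2R Tg were -0.019 and -0.0069.

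Mrpl36 differed from WT by 0.37 ± 0.15 in stimulated Gli2A Tg (adjusted p = 0.373) and 0.45 ± 0.15 in stimulated Gli2R Tg cells (adjusted p = 0.352). For Gli2A Tg against Gli2R Tg the lowest p-values were those of Mrpl22 (0.45 ± 0.16, adjusted p = 0.376), Mrpl49 (0.47 ± 0.17, adjusted p = 0.383) and Mrps36 (-0.41 ± 0.17, adjusted p = 0.463).

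The size of the stimulation response was also not called different in any member. The share of all genes with a called difference in stimulation effect was 0.011% for Gli2A Tg against WT, 0% for Gli2R Tg against WT and 0.11% for Gli2A Tg against Gli2R Tg, and the members called were 0 in each. At an unadjusted p under 0.05 there were 9, 10 and 2 members, beside 10.1%, 8.65% and 10.6% of all genes. The 9 for Gli2A Tg against WT all had a larger value in Gli2A Tg, beside 4.88% of all genes. This comparison shares its resting arrays with that of resting Gli2A Tg and WT cells, so the one-sided counts are not separate observations. The mean over members was 11.29 in both stimulated groups, and 11.13 in resting Gli2A Tg against 11.26 in resting WT cells. Mrps24 had the largest difference in effect, 0.65 ± 0.18 (adjusted p = 0.223), and its stimulation difference was 0.48 in Gli2A Tg and -0.18 in WT cells. Its arrays had 12.21, 12.21 and 12.20 in stimulated Gli2A Tg and 11.56, 11.71 and 11.92 in resting Gli2A Tg cells, and 11.63, 11.90 and 11.82 in stimulated WT and 12.02, 11.93 and 11.93 in resting WT cells.

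Mrps15 and Mrpl1 followed in Gli2A Tg against WT, with 0.46 ± 0.16 and 0.59 ± 0.21 (adjusted p = 0.361 and 0.364). For Gli2R Tg against WT the lowest p-values belonged to Mrpl51 (0.62 ± 0.19, adjusted p = 0.352), Mrpl36 (0.62 ± 0.21, adjusted p = 0.42) and Mrpl42 (0.48 ± 0.18, adjusted p = 0.461). For Gli2A Tg against Gli2R Tg they belonged to Mrpl58 (0.42 ± 0.18, adjusted p = 0.41), Mrpl54 (-0.53 ± 0.23, adjusted p = 0.428) and Mrps34 (0.37 ± 0.17, adjusted p = 0.47). A p that misses the threshold does not show that the genotypes respond alike.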

How the data were processed

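The 18 Affymetrix arrays, 3 in each group, were analysed from the series' value table. Its values are linear intensities as deposited by the authors, with a 2% trimmed mean of 500 on each array as measured on the table. The submitters' processing notes name affy (version not given in the sources used here). The labels' protocols give biotin-labelled cRNA from 1 ug of RNA and name both a column kit and Trizol for RNA. No count of reads stands behind an intensity, so the number of arrays limits the precision.

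Values were turned into log2(value + 16) and quantile normalised. Of 45101 probe sets, 34945 had 1 symbol in the platform annotation, 932 several and 9160 none, and 64 were controls. The brightest of a gene's probe sets with 1 symbol was kept, which gave 18193 genes. Moderated linear models (limma 3.58.1, run under R 4.3.3) were fitted over all 18 arrays with lmFit and eBayes, and 12 comparisons were tested on log2 intensities, with Benjamini-Hochberg adjustment over all genes within each and a threshold of 0.05, after a test on simulated data. "Rose" and "fell" mean an adjusted p under 0.05. Standard errors come from this fit, with 3 arrays in each group.

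The members and lists were chosen with earlier results of these data known. Genes named by rule were the 12 largest and 10 smallest differences in WT cells, the 3 lowest p-values where a comparison had no call, the members with opposed probe sets, and up to 4 genes of each other list; further members were named after their values were seen. Replicate numbers did not pair the arrays (correlations of deviations from -0.0577 to 0.104). The 12 alternatives covered scaling, pseudocount, filter, variance model, array weights, probe sets, block and arrays left out.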

Additional observations from a re-analysis of the deposited data

How the results depend on the processing

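Centring each array on its median gave 29 members higher and 13 lower on stimulation in WT cells, against 17 and 22, and 9 lower in Gli2A Tg cells, against 16. The arrays of the compared groups alone gave 10 lower in Gli2A Tg cells. For the counts between resting groups, which were 0, Gli2A Tg against WT had 1 (Mrps21) with a pseudocount of 64, with genes above the median level, and with trended, robust variances. Gli2R Tg against WT had 1 (Mrps15) with array weights. Gli2A Tg against Gli2R Tg had 2 with the pseudocount of 64, 4 with genes above the median level, 3 with trended, robust variances and 1 with array weights. Stimulated Gli2A Tg against WT had 1 (Mrpl9) with genes above the median level and 1 with trended, robust variances. The counts of called differences in stimulation effect were 0 in each alternative. The cause of these moves was not tested. Shares of all genes under these alternatives, and under those below, are not given here. The counts therefore cannot set the members apart from other genes. The filter both tests fewer genes and refits the variance model on them.

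Averaging a gene's probe sets reversed Mrpl58 on stimulation in Gli2R Tg cells (0.024), Mrpl9 and Mrps24 in stimulated Gli2R Tg against WT (-0.019 and -0.0069) and Mrpl58 in the difference of stimulation effect of Gli2A Tg against Gli2R Tg (-0.26). It also ended the calls of Mrpl19, Mrpl58 and Mrpl54 in WT cells, with adjusted p (limma) of 0.0578, 0.125 and 0.0747. In Gli2A Tg cells it ended those of Mrpl58, Mrps11 and Mrps21 (0.358, 0.188 and 0.986), and in Gli2R Tg cells those of Mrpl19, Mrpl27 and Mrps21 (0.0938, 0.0679 and 0.377). In Gli2A Tg cells, centring on the array median ended the call of Mrpl52 (-0.18, adjusted p = 0.353) and the deposited scaling that of Mrps27 (0.40, adjusted p = 0.0907).

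Leaving out 1 array at a time gave 24 to 27 higher and 13 to 15 lower in Gli2A Tg, 17 to 26 and 16 to 22 in Gli2R Tg, and 15 to 18 and 16 to 21 in WT cells. It gave 0 to 1 for resting Gli2A Tg against Gli2R Tg and 0 in the other genotype comparisons. With the replicate block, 27 rose and 15 fell in Gli2A Tg, 25 and 21 in Gli2R Tg, and 18 and 22 in WT cells, and 0 members were called between genotypes. The arrays share only a replicate number, so the block has no basis in the design. With 3 arrays in each group, small differences between genotypes are beyond the precision of these data.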
